A study of Homo sapiens with 8 samples.

Results

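The genes of the primary cilium and of the motile axoneme were examined in clones of PC-3, an established line of human prostate cancer cells. Members were the genes whose symbol on the array named them as subunits of intraflagellar transport (IFT), the Bardet-Biedl syndrome proteins (BBS), cytoplasmic dynein-2 (DYNC2), the tectonics (TCTN), nephrocystins (NPHP), axonemal dyneins (DNAH, DNAI) or radial spokes (RSPH). The rule found 42 members among the 14884 genes measured. Of these, 31 belong to the primary cilium, among them 1 transcribed pseudogene (IFT122P3), and 11 to the motile axoneme (DNAI3, DNAI4, DNAI7 and 8 radial spoke genes). No DNAH heavy chain was listed in the annotation used, and the antisense symbol that the rule matched was left out.

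Total RNA of 8 clonal isolates was hybridised to 8 Affymetrix arrays, 1 array per clone. The RWDD4 group held 4 clones (17, 24, 5 and 6) of PC-3 cells given a p-Lenti vector that contained RWDD4, and the control group held 4 clones (2, 3, 4 and 5) given the same vector empty. All 8 had gone through drug selection, which the series text spells blastocydin, and were grown as clonal isolates. Each value therefore belongs to 1 clone, and differences between isolates add to the spread. RWDD4 itself ranged from 9.87 to 10.46 in its own clones, against 6.64 to 8.0 in the controls, a difference of 2.94 (SE 0.25, adjusted p 5.98e-05). The epithelial keratins KRT8, KRT18 and KRT19 averaged 6.5, 10.61 and 10.24 in the RWDD4 clones, against 6.78, 11.02 and 10.78 in the controls, and all 3 fell. CLDN7 also fell, by 0.52 on the log2 scale, but EPCAM did not pass the test, at 0.13 (SE 0.16). The mean over 5 epithelial markers was 7.89 to 8.04 in the RWDD4 clones, against 8.22 to 8.39 in the controls, and its part in the results below was not tested. Of 3 blood cell and 5 stromal or endothelial markers none rose, and 2 of each list fell. Over all genes 25.1% rose and 21.6% fell. KLK3, which PC-3 cells hardly use, averaged 5.76 in the RWDD4 clones, against 5.81 in the controls. Of 6 markers of multiciliated cells, FOXJ1, MCIDAS, CCNO, TPPP3 and CIMAP3 did not pass the test, and CAPS fell by 0.84 on the log2 scale. The mean over these 6 was 5.97 to 6.18 in RWDD4 clones, against 6.18 to 6.31 in controls.

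The primary cilium is a single, immotile antenna that many cells build on the mother centriole when they stop dividing and take down before mitosis. Its shaft is built and maintained by IFT trains, which hold the IFT-A and IFT-B complexes together. IFT-B is tied to outward movement with kinesin-2 and IFT-A to the return with dynein-2. The BBSome carries membrane proteins along with the trains. The transition zone, where the tectonics and nephrocystins sit, is the gate at its base. Motile cilia and sperm tails use the same transport machinery but add axonemal dynein arms, which make them beat, and radial spokes, which regulate the arms. No measurement of cilia themselves was part of these data.

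The values are log2 expression values on an RMA scale, which compare a gene between arrays and not 1 gene with another. A member is said to have risen or fallen when its adjusted p was under 0.05 in a limma fit over all 14884 genes, and differences are RWDD4 clones minus control clones in log2 units. Clones are named in the order 17, 24, 5 and 6 for the RWDD4 group and 2, 3, 4 and 5 for the control group. Alternative fits rescaled the arrays in 3 other ways (quantile normalization, centring on the median, cyclic loess) or took out the trend of the values with gene span. In bulk RNA a change in level per cell and a change in the share of cells that express a gene cannot be told apart.

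Promoter sequences are shown for 5 members, because ciliary genes of many animals carry an X-box, the binding site of RFX transcription factors, near their start. The promoter table (RefSeq, build GRCh38.p14) matched 28 of the 31 primary members and 9 of the 11 motile members. Each of the following runs is the 250 bases before the start of the gene, 5′ to 3′ on the gene's strand, with the matched motif in capitals. IFT57 (chr3:108222425-108222674, minus strand) and IFT56 (chr7:139133528-139133777, plus strand) are the primary members that rose and that hold an X-box form. IFT70A, the other primary member with that form in its window, did not pass the test (0.23, adjusted p 0.13), and its match is not within the 250 bases before the start. RSPH9 (chr6:43644786-43645035, plus strand) is the motile member that fell, and it also holds one. BBS7 (chr4:121870475-121870724, minus strand) and BBS10 (chr12:76348416-76348665, minus strand) had the largest rises among the members with a BBS symbol and hold the shorter RFX motif, in BBS10 at 3 places.
IFT57: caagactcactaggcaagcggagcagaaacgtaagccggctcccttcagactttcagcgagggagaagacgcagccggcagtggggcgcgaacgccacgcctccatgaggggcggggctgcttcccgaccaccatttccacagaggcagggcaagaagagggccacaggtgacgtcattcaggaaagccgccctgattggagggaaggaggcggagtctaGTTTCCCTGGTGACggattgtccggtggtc
IFT56: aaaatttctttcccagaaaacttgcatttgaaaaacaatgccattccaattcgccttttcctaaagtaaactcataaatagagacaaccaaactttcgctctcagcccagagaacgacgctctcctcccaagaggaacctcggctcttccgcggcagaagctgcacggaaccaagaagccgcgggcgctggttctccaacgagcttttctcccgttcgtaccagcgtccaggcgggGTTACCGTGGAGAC
RSPH9: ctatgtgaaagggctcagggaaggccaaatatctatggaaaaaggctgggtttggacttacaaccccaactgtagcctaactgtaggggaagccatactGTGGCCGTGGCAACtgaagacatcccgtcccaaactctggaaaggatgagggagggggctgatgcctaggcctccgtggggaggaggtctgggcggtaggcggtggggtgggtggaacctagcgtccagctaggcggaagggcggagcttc
BBS7: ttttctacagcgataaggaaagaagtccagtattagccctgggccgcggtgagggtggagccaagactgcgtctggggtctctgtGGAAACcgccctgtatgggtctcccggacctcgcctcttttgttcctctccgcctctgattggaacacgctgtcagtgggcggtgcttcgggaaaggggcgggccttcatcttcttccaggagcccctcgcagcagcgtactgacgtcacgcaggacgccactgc
BBS10: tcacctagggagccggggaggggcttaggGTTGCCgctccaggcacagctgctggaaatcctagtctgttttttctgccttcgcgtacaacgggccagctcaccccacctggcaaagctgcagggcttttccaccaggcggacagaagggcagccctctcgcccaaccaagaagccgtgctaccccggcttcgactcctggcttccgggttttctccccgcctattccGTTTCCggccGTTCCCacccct

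The X-box form searched was GTNNCC followed, after 2 free bases, by GGNNAC, and the shorter RFX motif was GTTNCC. Both strands were read, and a stretch with the first can also contain the second. In windows of 300 bases (250 before and 50 after the start), the X-box form was found in 3 of 31 primary promoters (9.68%) and 1 of 10 motile promoters (10.0%), against 2.45% of the 14884 promoters listed for the genes tested. The shorter motif was found in 24 of 31 primary promoters (77.4%) and in 10 of 10 motile promoters (100%), against 46.8%. Some genes have several promoters in the table, and the 14884 promoters came from 10749 of the genes tested. Among the motile promoters, RSPH10B and RSPH10B2 had the same 250 bases before the start, and RSPH3 had overlapping windows. Counted by gene, 15 of the 17 matched primary genes that rose held the shorter motif in at least 1 promoter. So did 23 of all 28 matched primary genes and 9 of the 9 matched motile genes, none of which rose. A share by gene over all genes was not computed, and a link of the motif to the rises was not tested. These are matches of letters, and no binding was measured.

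Of the 31 primary cilium members 19 rose in the RWDD4 clones (61.3%) and 1 fell, against 25.1% of all genes that rose and 21.6% that fell (46.7% in either direction). Of the 11 motile axoneme members none rose and 1 fell. The median difference was 0.50 for the primary members and -0.02 for the motile members, beside -0.08 over all genes. Primary members that rose did so by 1.32-fold to 2.97-fold. Of the 31 primary members 7 rose at least 2-fold, against 1450 of all 14884 genes (9.74%). Counted among risen genes only, these were 7 of 19 primary members and 1450 of 3741 genes. The groups did not overlap in 18 of the 31 primary members and in 0 of the 11 motile members, against 44.8% of all genes. All 18 were higher in the RWDD4 clones, against 23% of all genes that were higher without overlap. The contrast between the classes is given as counts and medians, and no test was run on it.

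**Figure D1:**
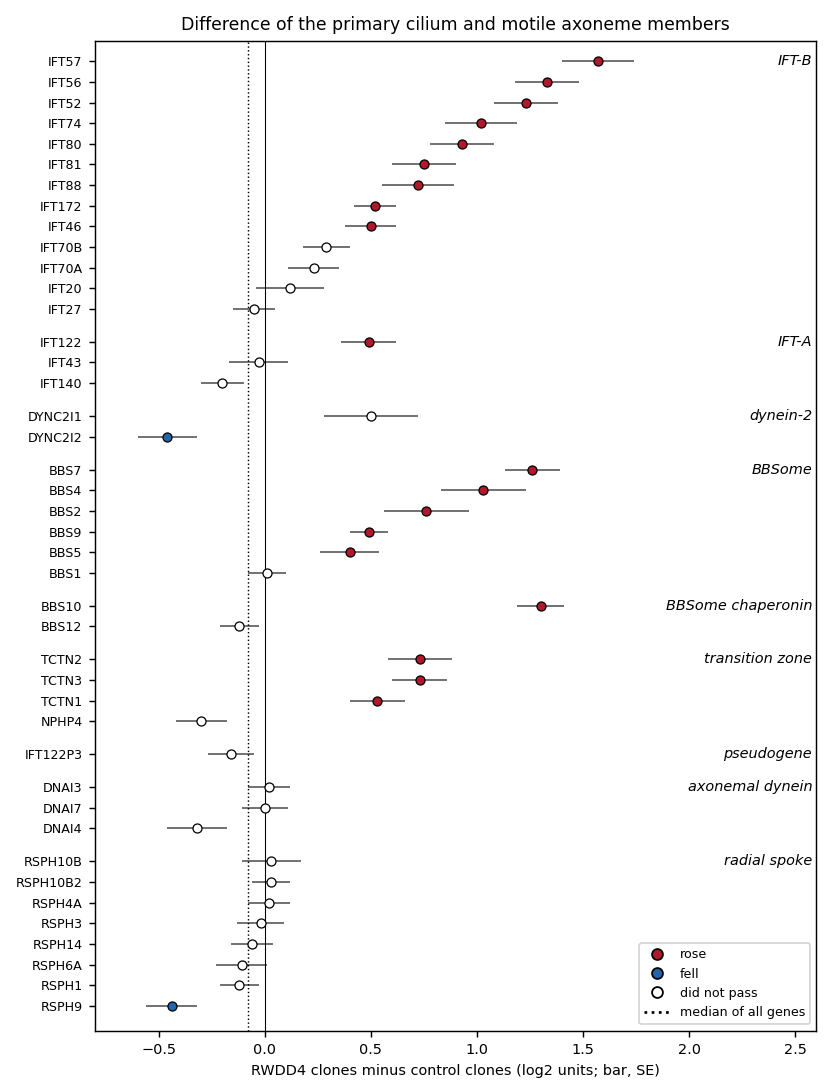
Difference between RWDD4 and control clones (log2 units, point, with SE as bar) for the 42 members, grouped by role from IFT-B at the top to radial spokes at the bottom. The filled points to the right are the 19 primary members that rose, up to IFT57 at 1.57, and the motile members at the bottom lie between -0.44 and 0.03.

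The calls ended in 1 alternative fit, which added a covariate: where each array lies along the main direction in which clones of a group differ from each other. In it 0 of the 19 passed, 17 kept a positive difference and their median was 0.25, while 1 of all 14884 genes passed (0% up, 0.00672% down). The covariate moved with the groups, from 19.7 to 35.9 for RWDD4 clones against -58.4 to -12.2 for controls, with control clone 2 the lowest. Its part in the rises was not tested.

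IFT-B is the complex tied to outward transport, and 9 of its 13 members rose and none fell, with a median of 0.72. IFT57, a subunit at the edge of the complex, had 6.84, 7.22, 7.51 and 6.84 in the RWDD4 clones, against 5.19, 5.61, 5.52 and 5.81 in the control clones. The lowest RWDD4 clone lay 1.03 above the highest control clone. IFT57 rose by 1.57 (SE 0.17), which is 2.97-fold, at an adjusted p of 9.96e-05.

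IFT56 is a subunit that in the mouse is needed for Hedgehog signalling. It had 7.12, 6.99, 7.54 and 7.12 in the RWDD4 clones, against 5.47, 5.92, 6.07 and 5.99 in the control clones. Clone 2 was the lowest control, and the groups were 0.92 apart at their nearest. IFT56 rose by 1.33 (SE 0.15), which is 2.51-fold, at an adjusted p of 0.000121.

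IFT52 is part of the stable core of IFT-B. It had 7.40, 7.13, 7.63 and 7.44 in the RWDD4 clones, against 5.93, 6.43, 5.96 and 6.36 in the control clones. Control clones 3 and 5 lay above clones 2 and 4, and all 4 lay below every RWDD4 clone. IFT52 rose by 1.23 (SE 0.15), which is 2.34-fold, at an adjusted p of 0.000132.

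IFT74 and IFT81, which together bind tubulin, rose by 1.02 (SE 0.17) and 0.75 (SE 0.15). IFT80 and IFT88, both needed for the cilium to assemble, rose by 0.93 (SE 0.15) and 0.72 (SE 0.17). IFT172, the largest subunit of IFT-B, and IFT46 rose by 0.52 (SE 0.10) and 0.50 (SE 0.12). IFT88 parted the RWDD4 clones into pairs: clones 17 and 24 had 4.61 and 4.66, clones 5 and 6 had 5.29 and 5.30, and the control clones lay between 4.15 and 4.34.

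The 4 IFT-B members that did not pass were IFT70B at 0.29 (SE 0.11), IFT70A at 0.23 (SE 0.12), IFT20 at 0.12 (SE 0.16) and IFT27 at -0.05 (SE 0.10). IFT70A and IFT70B are near-identical copies whose probes may read each other, and the second probe set of IFT70A gave 0.34 (SE 0.14, adjusted p 0.0645). IFT20 also sits at the Golgi and IFT27 is a small GTPase. IFT70A passed in 2 alternatives, with the mean of its probe sets (0.29) and without the span trend (0.39). IFT70B passed in 5, among them without control clone 4 (0.36) and without RWDD4 clone 24 (0.34). The range of IFT20 in the control clones, 7.03 to 7.79, contained every RWDD4 clone.

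IFT-A was split. IFT122 rose by 0.49 (SE 0.13), at 6.66 to 7.10 in RWDD4 clones against 6.12 to 6.58 in controls. IFT43 and IFT140 did not pass, at -0.03 (SE 0.14) and -0.20 (SE 0.10). The rise of IFT122 did not pass after quantile normalization (0.27) or once the trend with gene span was taken out (0.27), and in these settings the difference of IFT140 was -0.48 and -0.43, both past the threshold. IFT122P3, its pseudogene, lay at -0.16 (SE 0.11).

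A further list held 11 genes with other symbols: subunits, the dynein light chain DYNLT4 and the associated proteins ARL6, LZTFL1 and MKKS. Of these 11, 9 rose and 1 fell, DYNLT4, by 0.55. For IFT-A, the list added WDR35 at 1.95 (SE 0.20), which is 3.85-fold, TTC21B at 1.33 (SE 0.21) and WDR19 at 0.71 (SE 0.11), so that 4 of the 6 subunits of the complex rose. For IFT-B it added CLUAP1 at 0.81 (SE 0.14), which rose, and TRAF3IP1 at 0.23 (SE 0.09), which did not pass, giving 10 of 15.

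Dynein-2 is the motor of the return trip, and neither of its 2 members rose. DYNC2I2, an intermediate chain, had 9.67, 9.61, 9.53 and 9.31 in the RWDD4 clones, against 10.25, 9.63, 10.07 and 10.02 in the control clones. It fell by 0.46 on the log2 scale (SE 0.14, adjusted p 0.0181), although control clone 3 lay inside the range of the RWDD4 clones, and it did not pass without RWDD4 clone 6 (-0.39). The other intermediate chain, DYNC2I1, lay at 0.50 (SE 0.22, adjusted p 0.0926), with a control range of 5.70 to 6.92 that was the widest of all members. Without control clone 3 it passed, at 0.66.

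In the BBSome, a coat that carries receptors into and out of the cilium, 5 of 6 members rose and none fell. BBS7 had 6.53, 6.64, 6.89 and 6.88 in the RWDD4 clones, against 5.20, 5.69, 5.36 and 5.63 in the control clones. The nearest clones were 0.84 apart. BBS7 rose by 1.26 (SE 0.13), which is 2.40-fold, at an adjusted p of 8.19e-05.

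BBS4 had 6.39, 6.62, 6.82 and 7.32 in the RWDD4 clones, against 5.59, 6.17, 5.48 and 5.79 in the control clones. Its RWDD4 clones covered 0.92 log2 units, the widest such range among the members, with clone 6 at the top. BBS4 rose by 1.03 (SE 0.20), which is 2.04-fold, at an adjusted p of 0.00206.

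BBS2, BBS9 and BBS5 rose by 0.76 (SE 0.20), 0.49 (SE 0.09) and 0.40 (SE 0.14). BBS2 was tight in the RWDD4 clones, at 7.84 to 8.06, and spread from 6.54 (clone 2) to 7.69 (clone 3) in the control clones. BBS5 was the 1 member that rose with overlapping groups, at 5.16 to 5.42 in RWDD4 clones against 4.65 to 5.18 in controls, and its call was lost when any of 5 clones was left out (RWDD4 clones 24, 5 and 6 and control clones 3 and 4, with differences of 0.32 to 0.42). The call of BBS5 was also lost after median centring (0.27) and without the span trend (0.35).

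BBS1, the subunit that binds the GTPase ARL6, had the smallest difference of the primary members. It had 6.96, 6.95, 6.91 and 6.98 in the RWDD4 clones, against 6.93, 7.07, 6.81 and 6.95 in the control clones. The RWDD4 clones lay within the control range, and the difference was 0.01 (SE 0.09, adjusted p 0.941). After quantile normalization BBS1 fell by 0.25 (adjusted p 0.0333).

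With TTC8 at 0.68 (SE 0.12) and BBIP1 at 0.66 (SE 0.16) from the list of other symbols, 7 of the 8 BBSome subunits rose. ARL6, which brings the BBSome to membranes, rose by 1.35 (SE 0.19). LZTFL1, which restrains its entry into the cilium, rose by 0.62 (SE 0.14).

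The chaperonin-like proteins that assemble the BBSome were MKKS, BBS10 and BBS12. BBS10 had 7.21, 7.10, 7.12 and 7.47 in the RWDD4 clones, against 5.84, 6.10, 5.83 and 5.92 in the control clones, so that it rose by 1.30 (SE 0.11), which is 2.46-fold. Its adjusted p, 5.98e-05, was the smallest of the members. Every RWDD4 clone lay at least 1.0 above every control clone. MKKS rose by 1.16 (SE 0.17), and BBS12 lay at -0.12 (SE 0.09).

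All 3 tectonics, membrane and secreted proteins of the transition zone, rose. TCTN2 and TCTN3 each rose by 0.73 (SE 0.15 and 0.13) and TCTN1 by 0.53 (SE 0.13), and TCTN1 did not pass after quantile normalization (0.30). NPHP4, a scaffold of the same region, did not pass, at -0.30 (SE 0.12, adjusted p 0.0581). Without RWDD4 clone 24 it fell, by 0.40, and it fell in the 3 other scalings of the arrays and in the fit without the span trend (-0.55 to -0.41).

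**Figure D2:**
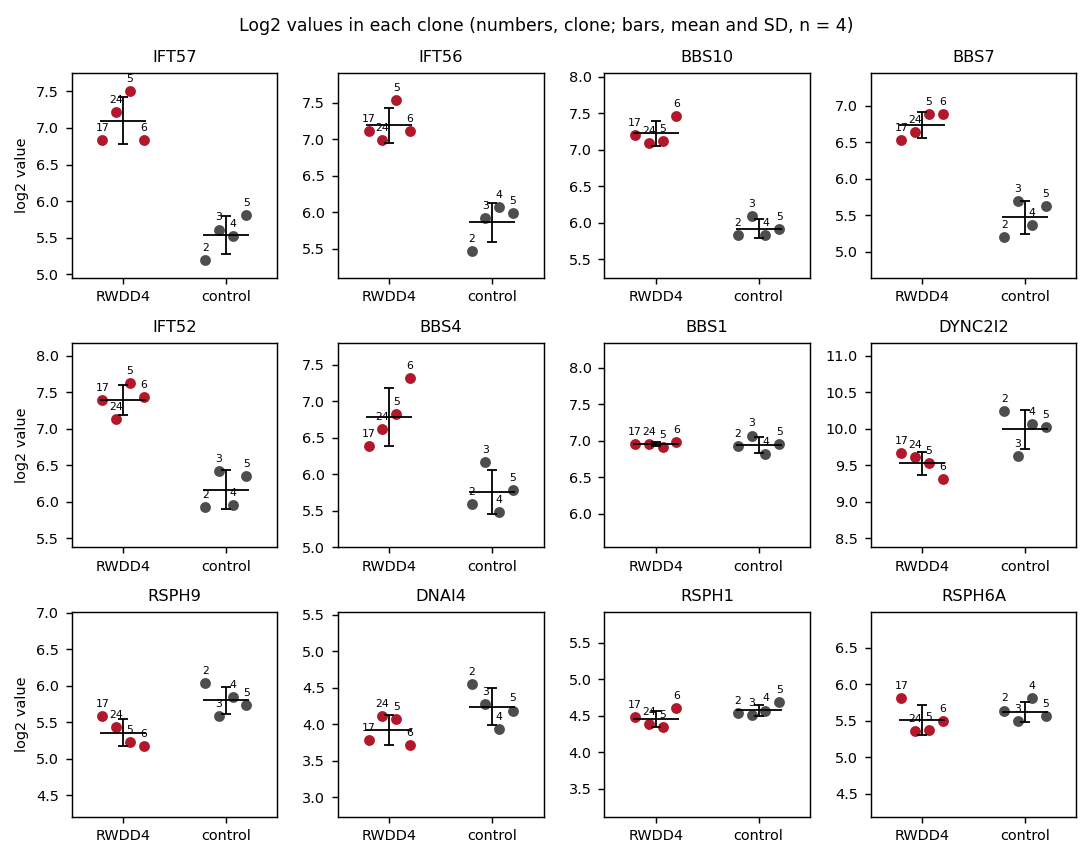
Log2 values of 12 members in each of the 4 RWDD4 clones (left, numbered) and 4 control clones (right, numbered), with mean and SD as bars and an axis of equal length in every panel. IFT57, IFT56, BBS10, BBS7, IFT52 and BBS4 are parted by group, BBS1 overlaps, and DYNC2I2, RSPH9, DNAI4, RSPH1 and RSPH6A overlap or touch.

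None of the motile axoneme members rose. RSPH9, of the head of the radial spoke, had 5.58, 5.43, 5.23 and 5.18 in the RWDD4 clones, against 6.03, 5.58, 5.84 and 5.74 in the control clones. RWDD4 clone 17 and control clone 3 met at 5.58, and the other clones were parted. RSPH9 fell by 0.44 on the log2 scale (SE 0.12, adjusted p 0.0146).

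DNAI4, an intermediate chain of the inner dynein arm, had 3.78, 4.11, 4.08 and 3.72 in the RWDD4 clones, against 4.55, 4.28, 3.94 and 4.19 in the control clones. The groups overlapped, and the difference of -0.32 (SE 0.14, adjusted p 0.0909) did not pass. Without control clone 4 it passed, at -0.42.

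RSPH1, also of the spoke head, had 4.48, 4.38, 4.35 and 4.6 in the RWDD4 clones, against 4.53, 4.51, 4.57 and 4.68 in the control clones. RSPH6A, a spoke-head gene used in sperm, had 5.81, 5.36, 5.38 and 5.49 in the RWDD4 clones, against 5.64, 5.49, 5.81 and 5.56 in the control clones. Both overlapped between the groups, at -0.12 (SE 0.09) and -0.11 (SE 0.12), and neither passed.

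The other 7 motile members lay between -0.06 (RSPH14) and 0.03 (RSPH10B and RSPH10B2), with standard errors of 0.09 to 0.14. The last 2 are near-identical copies whose probes may read each other. In both groups 7 of the 11 motile members averaged under 4.92, the median over every probe set. The files give no background level, so it was not determined whether any of the 11 motile genes was transcribed. KLK3, which PC-3 cells hardly use, averaged 5.76 in RWDD4 clones and 5.81 in controls. In both groups this lay above the means of RSPH6A, RSPH9 and RSPH14 and below those of RSPH3 (6.39 and 6.41). Such values compare genes only roughly. The 4 motile members above the median over every probe set were RSPH3, RSPH6A, RSPH9 and RSPH14. They had a median difference of -0.09, with 0 up and 1 down. Among the primary members 24 of 31 lay above it in both groups, and of the 27 whose mean over all arrays was above it 18 rose, against 33.5% of all such genes that rose and 27.9% that fell.

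The mean over the 19 primary members that rose was 6.59, 6.64, 6.86 and 6.87 in the RWDD4 clones, against 5.68, 6.00, 5.81 and 6.05 in the control clones. These means are shown for the order of clones within a group, since the members were picked for differing between groups. In the RWDD4 group, clones 5 and 6 were the highest in 17 of the 19 members and clones 17 and 24 the lowest in 16. In the control group, clone 2 was the lowest in 13. The 12 primary members that did not rise averaged 6.36 to 6.46 in RWDD4 clones, against 6.41 to 6.47 in controls. The 11 motile members averaged 4.46 to 4.53 in RWDD4 clones, against 4.53 to 4.65 in controls, and the 2 ranges met at 4.53. Without control clone 2, 19 primary members rose and the median was 0.46.

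**Figure D3:**
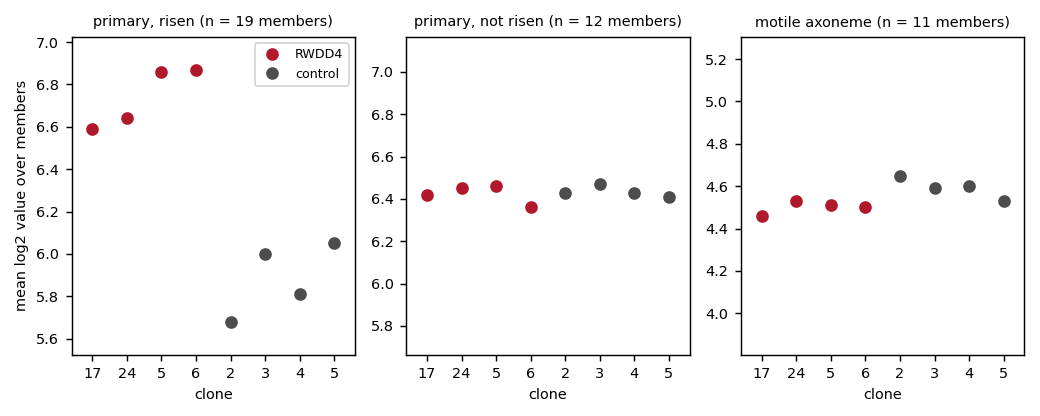
Mean log2 value in each of the 8 clones (RWDD4 left, control right, numbered) over the 19 primary members that rose, the 12 that did not and the 11 motile members, with an axis of equal length in each panel. The first panel parts the groups, with control clone 2 lowest at 5.68, the second runs from 6.36 to 6.47 over all clones, and the third from 4.46 to 4.65.

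Genomic span, the distance from the start to the end of a gene, had a higher median in the primary members that rose than in those that did not, with no test of the spans themselves. The median span was 52.3 kb for the primary members that rose, 33.7 kb for those that did not and 44.7 kb for the motile members, against 20.7 kb over all genes. Those that did not rise included the pseudogene IFT122P3, whose 10.0 kb lowered their median. Protein-coding genes made up 11916 of the 14884 genes and 41 of the 42 members. The spans ran from 3.94 to 506 kb for the primary members that rose, from 3.8 to 130 kb for those that did not and from 16.5 to 121 kb for the motile members. With each array's trend over span removed, 19 of 31 primary members rose, 17 of them among the 19 above, with a median of 0.41, and 0 of 11 motile members rose. In that fit 23.8% of all genes rose and 22.6% fell.

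**Figure D4:**
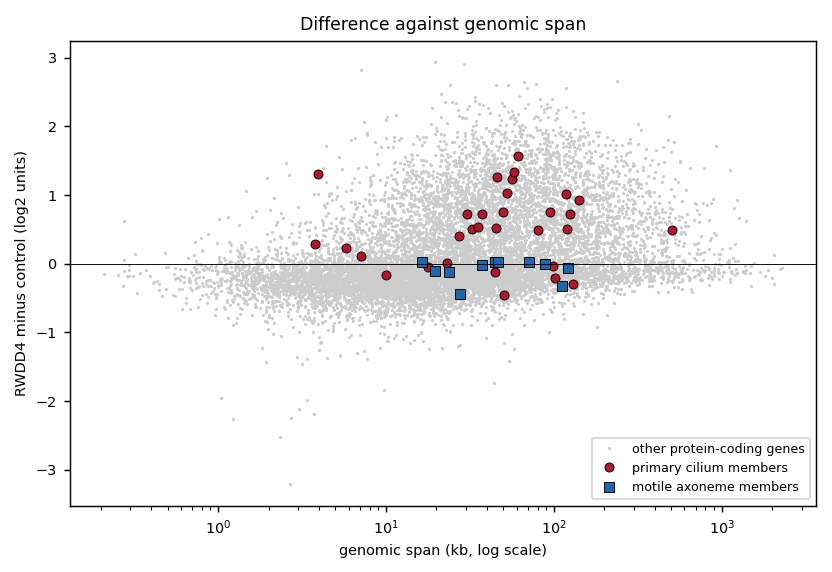
Difference between RWDD4 and control clones (log2 units) against genomic span (kb, log scale) for primary cilium members (circles), motile axoneme members (squares) and other protein-coding genes (grey). Over the spans of the motile members (16.5 to 121 kb), these lie at or under 0.03, while the primary members run from -0.46 to 1.57 and overlap them at the low end.

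Further cilium genes were counted from 9 lists with 104 measured genes, of which 43 rose and 11 fell, against the 25.1% and 21.6% of all genes. In the transition zone list 8 of 14 rose and 1 fell. TMEM237 rose by 1.4 (SE 0.19), IQCB1 by 1.28 (SE 0.17), RPGRIP1L by 1.23 (SE 0.11) and TMEM67 by 1.10 (SE 0.16). B9D2 fell by 0.36, but the list held 0 falls without RWDD4 clone 6, 2 without RWDD4 clone 24, 2 after cyclic loess and 3 after quantile normalization or median centring. CEP290, a large linker of the gate, did not pass at 0.50 (SE 0.21), with an SD of 0.50 in the RWDD4 clones and 0.08 in the control clones.

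Among 10 kinesins and cargo carriers 6 rose and 3 fell. The 3 subunits of heterotrimeric kinesin-2, the outward motor of IFT, rose: KIF3A by 1.34 (SE 0.19), KIFAP3 by 0.98 (SE 0.17) and KIF3B by 0.78 (SE 0.11). TULP3, which hands receptors to IFT-A, rose by 0.66 (SE 0.11). KIF3C, KIF17 and KIF7, the kinesin-like regulator of GLI proteins at the ciliary tip, fell by 0.46, 0.42 and 0.28, but the list held only 1 fall without RWDD4 clone 17, 5 or 6 or without control clone 2 or 3.

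Genes that start the cilium at the mother centriole were mostly higher, with 9 of 12 up and 2 down. KIAA0586, needed for centriole docking, rose by 2.14 (SE 0.25), or 4.42-fold, and C2CD3 by 1.01 (SE 0.16). CEP97 and CCP110, which form the cap that blocks ciliogenesis until it is removed, rose by 1.95 (SE 0.18) and 1.90 (SE 0.12). EHD1, which shapes the ciliary vesicle, and MARK4 fell by 0.61 and 0.45.

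Of 6 genes of cilium disassembly 3 rose: NEK2 by 1.85 (SE 0.19), KIF2A by 1.68 (SE 0.25) and AURKA by 1.17 (SE 0.21). These 3 also act in mitosis. HDAC6, a tubulin deacetylase, and PLK1 did not pass, at -0.08 and 0.45.

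Hedgehog signalling, which in vertebrates runs through the primary cilium, was counted over its ligands, receptors and targets. Of 10 measured genes 1 rose and 2 fell, with a median of -0.11. GLI1, a transcription factor and target of the pathway, had 5.01 ± 0.07 in the RWDD4 clones and 5.42 ± 0.13 in the control clones (SD, n = 4 each) and fell by 0.41 (adjusted p 0.00543). HHIP, a target that binds the ligands, rose by 0.71 (SE 0.14), the ligand DHH fell by 0.34, and the receptor PTCH1, also a target, lay at 0.08 (SE 0.13). In each of the 3 other scalings of the arrays 4 of the 10 fell, and without RWDD4 clone 5 or 6 or control clone 2, 4 or 5 only 1 did.

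Of 6 ciliary transcription factors measured none passed, but 1 to 2 fell in the other scalings, 1 without RWDD4 clone 17 and 1 without the span trend. FOXJ1, the master factor of motile cilia, averaged 6.28 ± 0.23 in the RWDD4 clones and 6.57 ± 0.06 in the control clones (SD, n = 4 each; adjusted p 0.0615). In the list of further axoneme genes 3 of 28 rose and 2 fell, with a median of -0.11. Those that rose were SPAG1 (0.80, SE 0.21) and CFAP298 (0.43, SE 0.14), which act in the cytoplasm in the assembly of dynein arms, and ODAD2 (0.61, SE 0.12), of the docking complex of the outer arm. DRC4 and TEKT2 fell by 0.33 and 0.28. With median centring 11 of the 28 fell, 10 did without the span trend and 6 after quantile normalization, and 1 to 4 did with 1 clone left out.

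Cytoplasmic dynein-1 and its partner dynactin move cargo in the cell body and served as a neighbouring machine outside the cilium. The 7 genes measured were all of dynactin, and 4 of them rose: DCTN6 by 1.26 (SE 0.12), DCTN4 by 1.11 (SE 0.17), ACTR10 by 0.99 (SE 0.15) and DCTN5 by 0.44 (SE 0.12). DCTN1 and DCTN3 did not pass, at -0.17 and -0.16, and 1 to 3 genes of the list fell in the other scalings and without the span trend.

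**Figure D5:**
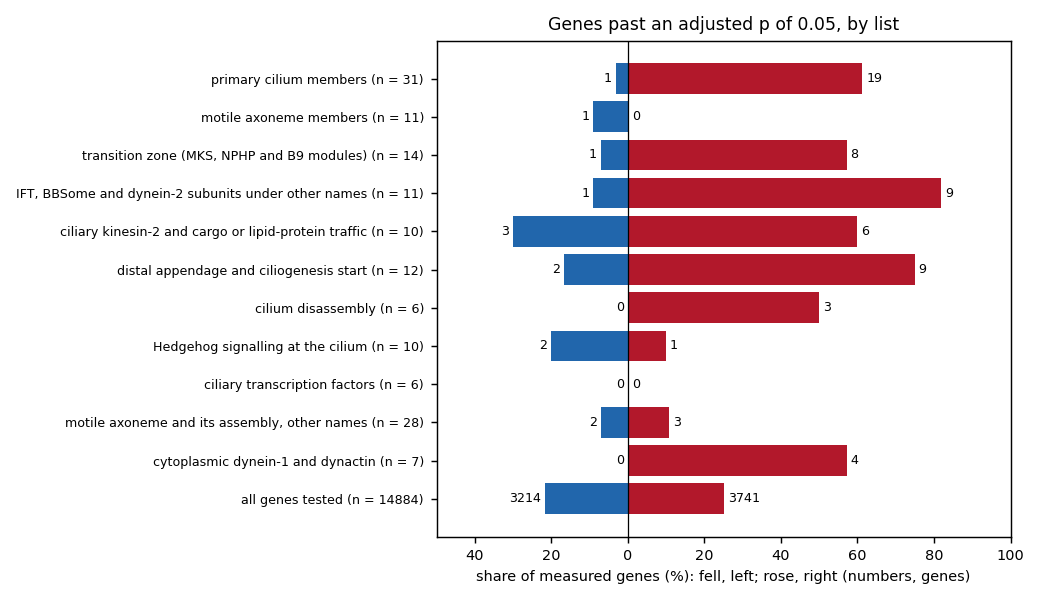
Share of measured genes (%) that rose (right) or fell (left) in the RWDD4 clones for the primary and motile members, the 9 further lists and all 14884 genes, with the number of genes at each bar. The right bars are longest for subunits and associated proteins under other names (9 of 11) and the distal appendage list (9 of 12). They are shorter than the bar for all genes (25.1%) for motile members, further axoneme genes, Hedgehog genes and transcription factors.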

How the data were processed

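The authors deposited a log2 value for each probe set on each array. Partek and RMA are named, with no version, in the submitters' processing notes. RMA corrects background, normalizes arrays to each other and summarises probes. Of 53617 probe sets, 16098 had 1 gene symbol in the annotation, none had several and 37519 were unlisted here. They stood for 14884 genes, all matched by gene ID to a RefSeq table (GRCh38.p14), which gave symbols and genomic span. For a gene with several probe sets (779 genes, of which 1 member), the one with the highest mean over the 8 arrays was used.

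RWDD4 clones were compared with control clones in 1 fit over all genes (lmFit and eBayes, limma 3.58.1, R 4.3.3), two-sided and without covariates, Benjamini-Hochberg over all genes. Lists were described by counts and medians and were not tested. The members and lists were chosen with earlier results of these data known. Every member may be named. Values in all clones were given for the 6 primary members with the largest differences, the primary member with the smallest, any that fell, and the 4 motile members with the largest, and up to 4 genes past the threshold and 2 not past it were named per further list. Other genes of those lists (those that fell, and subunits that complete a complex) were named after their values were seen. The p-values set the difference between the groups against the spread within them. With 1 array per clone, this spread holds differences between clones and between arrays together. No 2 arrays held identical values, and the number of arrays limits the precision. On simulated data over 14884 genes, 55.2%, 95.5% and 98.5% of genes changed by 0.5, 1 and 2 log2 units were recovered. In it 8 of 174 calls were false. The simulation changed few genes and gave each gene independent noise. In the data 46.7% of genes passed and clones of a group differed along a shared direction, so the simulated rates cannot be carried over to these calls. Alternatives covered the variance model, probe sets, a filter on level, scaling, array weights, genomic span, the within-group axis and leaving out each clone. The sources used here give neither scan dates nor batches.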

Additional observations from a re-analysis of the deposited data

Results flagged for a closer look

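In 5 of 84 combinations of member and group, 1 clone stood apart from the other 3 of its group by more than Dixon's criterion allows, where chance would mark about 1 in 20. TCTN2 lay at 7.68 in RWDD4 clone 6, against 7.28 to 7.34 in the other RWDD4 clones. IFT74 lay at 6.26 in RWDD4 clone 17, against 6.93 to 7.06. IFT81 lay at 4.41 in control clone 2, where the other controls had 4.75 to 4.80. IFT27 lay at 6.79 in the same clone, and at 6.46 to 6.49 in the others. IFT70B lay at 4.57 in control clone 4, against 4.25 to 4.30, and without that clone IFT70B passed, at 0.36.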

How the results depend on the processing

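The count of primary members that rose was 18 to 20 under every alternative but 1, and 18 to 19 with any 1 clone left out; no motile member rose under any alternative run. With the covariate for the within-group direction, 1 gene of 14884 passed, 0 primary and 0 motile members passed in either direction, 0 of the 104 further cilium genes passed, the median differences were 0.21 (primary) and 0.06 (motile), and the RWDD4 difference was 1.88 (adjusted p 0.159). In that fit BBS2, IFT46, DYNC2I2 and RSPH9 had the opposite sign, at -0.30, -0.02, 0.08 and 0.08. BBS1 changed sign and fell after quantile normalization (-0.25). Primary members that fell numbered 4 after quantile normalization, 4 after median centring, 3 after cyclic loess and 4 without the span trend, and 0 to 2 with 1 clone left out (0 without RWDD4 clone 6, 2 without RWDD4 clone 24). Motile members that fell numbered 3 after median centring, 3 with the span trend removed and 1 to 2 with 1 clone left out (2 without control clone 4). The primary median was 0.36 after quantile normalization and 0.37 after median centring. The motile median was -0.09 among genes above the median level, -0.15 after median centring, -0.14 with the span trend removed and -0.07 to 0.03 with 1 clone left out, above 0 without RWDD4 clone 17 alone. Median centring moved the median of all genes to -0.207, and quantile normalization to -0.0918, from -0.0826. The causes were not tested. No paired analysis was possible because the groups share only 1 clone number, which names different clones. In both groups 7 of the 11 motile members averaged under 4.92, the median over every probe set, and no background was measured. Whether the motile genes were transcribed was therefore not determined.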
